A study of Mus musculus with 2 samples.

Results

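The 37 genes described here code for the mouse receptors of serotonin, dopamine, adrenaline and noradrenaline, acetylcholine (the muscarinic kind) and histamine. They were chosen by symbol: every gene named Htr, Drd, Adra, Adrb, Chrm or Hrh followed by a digit, with at least 1 transcript annotated as protein_coding, was a member. They are 37 of 21901 protein-coding genes and of 55536 gene rows in the deposited tables. Total RNA was measured in hippocampus, labelled as layer of hippocampus, of male B6CASTF1/J mice, the F1 hybrid of C57BL/6J and CAST/EiJ, at an age of 18 to 20 months, with 300 ng of RNA taken into each library. There was 1 group with 2 libraries, biological replicate 1 and biological replicate 2. Both carry the same donor record and the number of animals is not given, so the spread between them may be technical. With 1 group there was no contrast of conditions, and an exact sign-flip test of 2 values cannot give a p below 0.5, so levels are given with their SD (n = 2 throughout) and no p-value.

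Neurons that release these transmitters have their cell bodies outside the hippocampus: serotonin axons come from the raphe nuclei, noradrenaline from the locus coeruleus, dopamine from the midbrain and the locus coeruleus, acetylcholine mainly from the medial septum, and histamine from the tuberomammillary nucleus. The receptors on hippocampal cells are, apart from the serotonin-gated channel of the Htr3 genes, proteins with 7 membrane-spanning helices that act through G proteins. Those coupled to Gq raise calcium through phospholipase C, those coupled to Gs raise cyclic AMP and those coupled to Gi/o lower it.

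Replicate 1 held 34563482 expected counts over genes and replicate 2 held 32370292, and the 37 receptor genes took 23328 and 22500 of them. Markers of the tissue were present in both libraries: the 4 excitatory neuron genes summed to 2668 and 2723 TPM (an abundance scaled to each library's total and corrected for length), and the 5 CA1 genes to 242.9 and 233 TPM. Lists for other regions were detected too: 5 of 5 neocortex genes, at a summed 63.4 and 65.2 TPM, and 5 of 5 thalamus genes, at 30.1 and 25.45 TPM. The part of such tissue in the receptor levels was not tested. Among the marker lists compared, the libraries differed most in choroid plexus genes, of which 9 of 9 were higher in replicate 2. Their sum was 39.0 TPM in replicate 1, against 711 TPM in replicate 2. Levels below are the deposited TPM, replicate 1 before replicate 2. Rescaling over protein-coding nuclear genes multiplies all receptor levels of a library by 1 factor; the mean of the libraries then rises 2.40-fold at the median member.

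Most of the receptor genes were present at low levels. At 1 TPM or more in each library, 28 of 37 members were detected, or 75.7%, against 57.7% of all protein-coding genes. The median level was 2.86 TPM over the 37 members and 3.23 TPM over all protein-coding genes; over those detected it was 5.45 TPM for receptors and 14.6 TPM for protein-coding genes. Detected receptors were thus a larger share of their list, at a lower median level, than protein-coding genes in general. In both libraries 8 members stood above 10 TPM: Chrm1, Adra1d, Hrh3, Chrm3, Htr1a, Chrm4, Htr4 and Adra2c. The lowest of them, Adra2c, was above 65.6% of protein-coding genes in replicate 1 and 66.0% in replicate 2. In bulk tissue, few cells with much of a receptor RNA and many cells with little of it cannot be told apart.

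**Figure D1:**
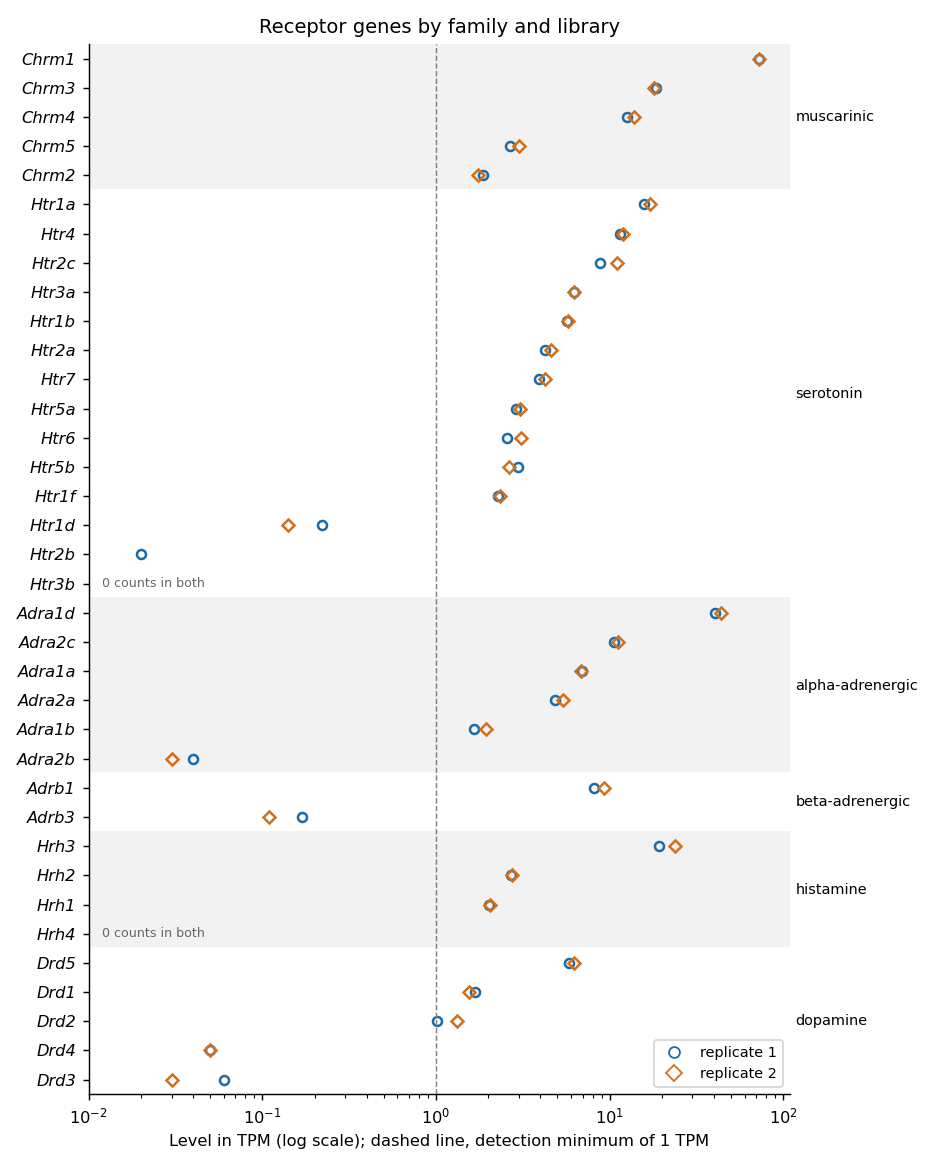
Level of receptor genes in TPM on a log axis, by family, with replicate 1 as circles and replicate 2 as diamonds; the dashed line marks the detection minimum of 1 TPM. Chrm1 stands highest at 72.6 and 73.0 TPM and Drd2 lies just right of the line at 1.01 and 1.33 TPM; 36 of the 37 genes are drawn, and a library at 0 has no symbol.

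Summed over all members, receptor RNA came to 281.95 TPM in replicate 1 and 299.7 TPM in replicate 2. The 5 muscarinic genes held the most, 108.4 and 109.8 TPM, followed by the 14 serotonin receptor genes at 67.2 and 72.2 TPM and the 6 alpha-adrenergic genes at 64.5 and 69.5 TPM. Histamine receptor genes summed to 24.1 and 28.7 TPM, beta-adrenergic genes to 9.16 and 10.3 TPM and dopamine receptor genes to 8.65 and 9.21 TPM. In each family 1 gene led, and in 5 of the 6 families it held over 60% of the sum. Adrb1 held 89.1% ± 1.11 of the beta-adrenergic sum, Hrh3 81.8% ± 2.06 of the histamine sum, Drd5 67.8% ± 0.0816 of the dopamine sum, Chrm1 66.8% ± 0.334 of the muscarinic sum and Adra1d 62.997% ± 0.582 of the alpha-adrenergic sum. The serotonin family was spread more evenly, with Htr1a in front at 23.6% ± 0.163. Grouped by their usual coupling, the 10 Gq receptor genes held 55.5% ± 0.768 of the receptor TPM, the 16 Gi/o genes 29.0% ± 0.783, the 9 Gs genes 13.3% ± 0.0902 and the 2 channel genes 2.15% ± 0.105. These are shares of RNA; Chrm1 and Adra1d alone make up most of the Gq share, and the coupling of the Htr5b product, counted here as Gi/o, is not well established.

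**Figure D2:**
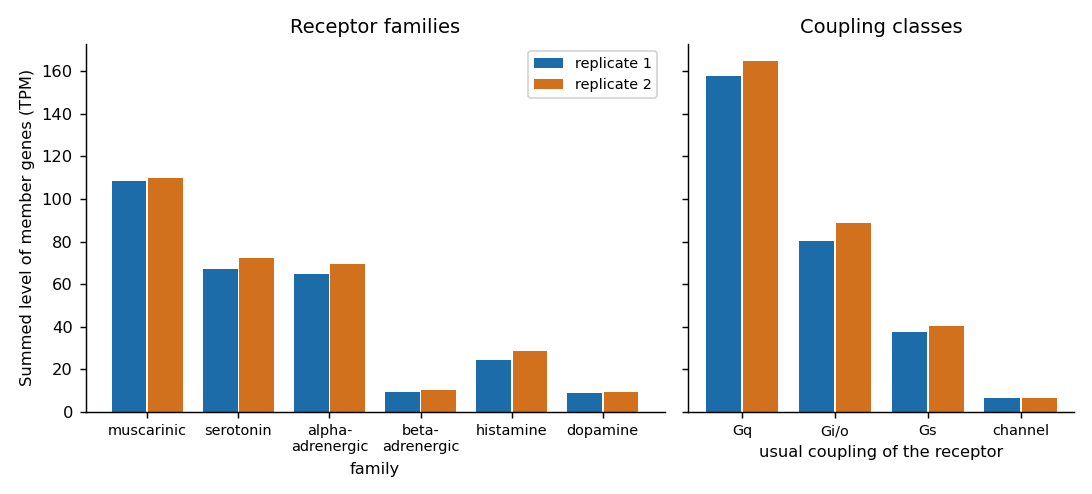
Summed TPM of the receptor genes by family (left) and by usual coupling (right), with replicate 1 and replicate 2 as separate bars. The muscarinic bars stand at 108.4 and 109.8 TPM and the Gq bars at 158.0 and 164.7 TPM, the highest in each panel.

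The coding sequence lies within 1 exon in 17 of 37 members, or 45.9%, against 16.4% of 21782 protein-coding genes with a complete coding sequence. Receptors of this class carry an aspartate-arginine-tyrosine motif at the inner end of the third membrane helix, a contact with the G protein. It was found in the longest coding sequence of 33 of the 35 members coupled to G proteins, or 94.3%, whereas 8.1% of 21777 protein-coding genes have these 3 residues in a row anywhere. The exceptions were Hrh3 and Drd4, where the third residue is phenylalanine, at a motif that starts at residue 131 in Hrh3 and 129 in Drd4. The stretch around the motif is shown for the leading gene of each family from the annotated transcript (GENCODE M21, mm10, coding strand), with the codons of the 3 residues in capitals, so that the difference in Hrh3 can be read. The stretches lie at chr19:8678281-8678319 (plus strand, Chrm1), chr2:131561587-131561625 (minus, Adra1d), chr2:180102732-180102770 (minus, Hrh3), chr13:105444635-105444673 (plus, Htr1a), chr19:56722819-56722857 (plus, Adrb1) and chr5:38320053-38320091 (plus, Drd5).
Chrm1: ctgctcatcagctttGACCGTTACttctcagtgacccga
Adra1d: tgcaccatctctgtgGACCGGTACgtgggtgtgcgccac
Hrh3: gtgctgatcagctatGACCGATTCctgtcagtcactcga
Htr1a: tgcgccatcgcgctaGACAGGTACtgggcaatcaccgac
Adrb1: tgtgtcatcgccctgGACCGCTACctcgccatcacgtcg
Drd5: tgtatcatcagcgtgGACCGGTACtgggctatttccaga

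Among the muscarinic genes, Chrm1 stood far above the rest. This gene, on chromosome 19 from 8663789 to 8683587, codes for the M1 receptor, a Gq-coupled receptor of forebrain principal neurons. It had 72.6 TPM in replicate 1 and 73.0 TPM in replicate 2, on 8270 and 7601 expected counts, above 94.5% and 94.3% of protein-coding genes. Chrm3, of the Gq-coupled M3 receptor, had 18.6 and 18.1 TPM, so that Chrm1 was 3.96 ± 0.0908 times as high. Chrm4, of the Gi/o-coupled M4 receptor, had 12.6 and 13.8 TPM. The ranges of these 3 genes did not overlap. Chrm5, of the Gq-coupled M5 receptor known from midbrain dopamine neurons, had 2.68 and 3.03 TPM. Chrm2, of the Gi/o-coupled M2 receptor that acts as an autoreceptor on cholinergic axons, had 1.86 and 1.74 TPM and was the lowest of the family by TPM. Chrm1 stood 40.5 ± 2.07 times as high as Chrm2.

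TPM depends on the annotated length, and the muscarinic genes show this. The annotated models of Chrm4 and Chrm5 hold no untranslated sequence, while that of Chrm1-201 has 524 bases before and 2252 bases after the coding sequence. Chrm4 had only 424 and 428 expected counts, and its place among the 37 members was 6 by TPM but 15 by counts scaled to library size with no length correction (CPM). Chrm5 stood at place 19 by TPM and 25 by CPM, and Chrm2 at 25 by TPM and 20 by CPM, so by CPM Chrm5 was the lowest of the family. Chrm1 was first and Adra1d next on both scales.

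Of the alpha-adrenergic genes, Adra1d led. It codes for the Gq-coupled alpha-1D receptor, lies on the minus strand of chromosome 2 from 131545850 to 131562283, and had 40.4 and 44.1 TPM. Its model is short, with 115 bases before and 95 bases after the coding sequence, and its 1824 and 1829 expected counts were close to the 1736 and 1731 of Htr1a, which has a model of 4484 bases and a level of 15.8 and 17.1 TPM. The other alpha-1 genes were lower: Adra1a had 6.98 and 6.85 TPM, or 0.164 ± 0.0123 of Adra1d, and Adra1b had 1.65 and 1.94 TPM. The log2 ratio of Adra1a over Adra1d was -2.61 ± 0.11 by TPM and -1.47 by CPM. Of the alpha-2 genes, whose Gi/o-coupled products act as autoreceptors on noradrenaline neurons as well as on their targets, Adra2c had 10.6 and 11.2 TPM. Adra2a had 4.87 and 5.42 TPM, 0.472 ± 0.0179 of Adra2c, and the ranges of these genes did not overlap. Adra2b had 4 and 3 counts, and 17.5 and 19.1 estimated counts in the second quantification. An antisense gene, Gm14285, overlaps Adra1d and held 21 and 14 counts; whether each table was counted by strand is not stated in the sources used here.

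Among the beta-adrenergic genes only Adrb1, of the Gs-coupled beta-1 receptor, passed the minimum, with 8.09 and 9.24 TPM. Adrb3, known from fat tissue, had 9 and 3 counts.

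The serotonin receptor genes covered each coupling class. Htr1a, on chromosome 13 from 105443639 to 105448122, codes for the Gi/o-coupled receptor that hyperpolarises pyramidal cells, and had 15.8 and 17.1 TPM. It was 2.85 ± 0.137 times as high as Htr1b, of a Gi/o-coupled receptor found mainly on axon terminals, which had 5.72 and 5.80 TPM. Htr1f had 2.27 and 2.33 TPM, and Htr1d, whose protein is the closest to that of Htr1b at 61.8% identity, had 13 and 9 counts. The Gs-coupled group was led by Htr4 at 11.5 and 11.9 TPM, a level above those of Htr7 at 3.91 and 4.25 TPM and Htr6 at 2.57 and 3.09 TPM, with no overlap among the 3 genes.

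The Gq-coupled serotonin receptor genes were led by Htr2c on the X chromosome, with 8.81 and 11.0 TPM. Htr2a, the main target of classical psychedelics, had 4.26 and 4.61 TPM, or 0.451 ± 0.0458 of Htr2c, and the ranges did not overlap. Htr2b had 1 and 0 counts; it lies within Psmd1, a proteasome gene on the opposite strand at 43.2 and 46.9 TPM. Htr3a, of the A subunit of the serotonin-gated channel known from interneurons, had 6.28 and 6.23 TPM. Htr3b, of the B subunit, had 0 counts in both libraries, which allows up to 0.0517 TPM in replicate 1 and 0.0563 TPM in replicate 2 (3 counts; counting error only). Htr5a and Htr5b, whose proteins share 69.2% of residues, the highest identity among members, had 2.91 and 3.07 TPM and 2.97 and 2.64 TPM. By TPM their order differed between the libraries, and their ratio was 1.07 ± 0.130. By counts, Htr5a was higher in both, with 386 and 374 against 137 and 112 for Htr5b, and the log2 ratio was 1.62 by CPM against 0.09 by TPM; the annotated model of Htr5a has 5376 bases and that of Htr5b 1935.

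Among the histamine receptor genes Hrh3 was the highest. The H3 receptor is a Gi/o-coupled receptor that acts as an autoreceptor on histamine neurons and as a receptor on other neurons. Hrh3 had 19.3 and 23.9 TPM. Hrh2, of the Gs-coupled H2 receptor, had 2.71 and 2.76 TPM, and Hrh1, of the Gq-coupled H1 receptor, 2.01 and 2.04 TPM, so Hrh3 was 7.91 ± 1.09 times Hrh2 and 10.7 ± 1.49 times Hrh1. The log2 ratio of Hrh3 over Hrh2, 2.98 ± 0.20 by TPM, was 2.33 by CPM and 3.59 ± 0.03 over protein_coding transcripts only. Hrh4, of the H4 receptor known from blood cells, had 0 counts in both libraries, which allows up to 0.117 and 0.127 TPM.

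The dopamine receptor genes had the lowest sum of the 6 families within each library. Their range, 8.65 to 9.21 TPM, overlapped that of the beta-adrenergic genes, 9.16 to 10.3 TPM. Drd5, of the Gs-coupled D5 receptor, had 5.86 and 6.25 TPM. Drd1, of the other Gs-coupled dopamine receptor, had 1.67 and 1.55 TPM, so that Drd1 stood at 0.267 ± 0.0262 of Drd5, with no overlap. Drd2, of the Gi/o-coupled D2 receptor, had 1.01 and 1.33 TPM, just above the minimum. Drd3 had 2 and 1 counts and Drd4 had 1 and 3. Drd1 and Drd2 are abundant in striatum, and 4 of 6 striatal markers were detected, at a summed 58.0 and 61.8 TPM over the list, with Adora2a, its lowest gene, at a mean of 0.68 TPM; the part of striatal cells in the levels of Drd1 and Drd2 was not tested.

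In the order of all 37 mean levels, the ranges of 22 of the 36 neighbouring pairs were apart and those of 14 overlapped. The 7 steps from Chrm1 down to Adra2c were all apart. Adra2c and Htr2c overlapped, as did Htr2c and Adrb1, and Htr3a and Drd5. Among Htr5a, Chrm5, Htr6, Htr5b and Hrh2, at 2.99 to 2.74 TPM, each of the 4 neighbouring pairs overlapped. Neighbours there could not be placed in order by their ranges. The ranges of Htr5a, at 2.91 and 3.07 TPM, and Hrh2, at 2.71 and 2.76 TPM, were apart.

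Of 37 members, 13 have 1 annotated transcript, and in 21 all protein_coding transcripts code for 1 protein sequence. For members with more than 1 transcript the gene level is a sum over transcripts, some of them with no coding sequence. Htr2c has a coding form that lacks most of the receptor. Htr2c-201 and Htr2c-202, which code for the 459-residue receptor, held 73.1% of the Htr2c TPM in replicate 1 and 61.9% in replicate 2 (67.5% ± 7.89), and Htr2c-207, which codes for 172 residues, held 15.4% and 20.1% (17.8% ± 3.28). In the second quantification, which per the deposited notes was derived from the reads rather than from an alignment, the 459-residue form held 83.3% ± 5.09 and Htr2c-207 11.4% ± 6.09. The full form was the main one in both libraries and both quantifications. In the first quantification Htr2c-207 had 155.18 and 232.38 expected counts, with posterior SDs of 75.64 and 71.95. A posterior SD scores the spread of an expected count within a library, which the ± between libraries leaves out. Htr2c-205, a processed transcript with no coding sequence, took 11.9% ± 3.20 in the first quantification and 0 in the second.

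Htr2c-207 skips 95 coding bases, chrX:147169676-147169770 (mm10, plus strand), shown in capitals below in the full form with 30 coding bases on each side, the last 30 from the next exon. The skip starts at the last base of the arginine codon of the aspartate-arginine-tyrosine motif, whose aspartate is residue 152, and removes the tyrosine codon. Since 95 bases leave a remainder of 2 on division by 3, the frame shifts: the forms share 153 residues and Htr2c-207 ends after 19 others. The skipped stretch is also where Htr2c RNA is known to be edited from adenosine to inosine; editing cannot be read from these tables.
Htr2c-201: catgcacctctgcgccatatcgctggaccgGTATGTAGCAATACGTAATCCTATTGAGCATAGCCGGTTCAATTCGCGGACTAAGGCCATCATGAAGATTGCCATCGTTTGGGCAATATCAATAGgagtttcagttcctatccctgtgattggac
Htr2c-207: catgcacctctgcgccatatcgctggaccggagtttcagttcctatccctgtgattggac

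Htr3a has a long and a short form that differ by 18 coding bases at chr9:48899991-48900008 (mm10, minus strand), in capitals below, which add 6 residues in the loop region before the last membrane segment. The short form Htr3a-202, of 483 residues, held 96.2% ± 1.15 of the Htr3a TPM in the first quantification and 82.6% ± 8.04 in the second, and the long form Htr3a-201, of 489 residues, 3.84% ± 1.15 and 17.4% ± 8.04. The short form led in each library, and the size of its lead depended on the quantification. In the first quantification the long form rested on 9.35 and 13.21 counts, with posterior SDs of 11.14 and 16.13.
Htr3a-201: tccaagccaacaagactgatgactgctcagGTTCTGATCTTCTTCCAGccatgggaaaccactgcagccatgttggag
Htr3a-202: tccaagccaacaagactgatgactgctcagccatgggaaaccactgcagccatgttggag

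Hrh3 has 6 annotated coding forms, of which Hrh3-201, of 445 residues, held 83.1% ± 1.77 of the gene's TPM (77.1% ± 4.08 in the second quantification). Hrh3-202, of 466 residues, held 0.733% ± 0.0860, and the 4 forms of 301, 407, 413 and 455 residues were listed at 0 in both libraries and both quantifications. A retained-intron transcript, Hrh3-206, took 9.90% ± 1.13 and one annotated for nonsense-mediated decay, Hrh3-207, 6.31% ± 0.722. The Hrh3 level was therefore mostly, and not entirely, that of the 445-residue receptor.

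Adra1a was divided between a 466-residue form at 53.0% ± 7.94 and a 427-residue form, Adra1a-203, at 40.6% ± 6.93. They held 58.6% and 35.7% in replicate 1, and 47.4% and 45.5% in replicate 2. In replicate 2, Adra1a-203 had 288.54 counts with a posterior SD of 31.15, so the order there was not settled. The 466-residue form held 56.3% ± 0.840 in the second quantification. Htr4 forms differ in the tail of the protein, and their order was not settled: Htr4-204, of 387 residues, led with 57.8% ± 1.42 in the first quantification, and Htr4-201, of 388 residues, with 37.0% ± 2.20 in the second. Htr7-202, of 448 residues, held 76.2% and 43.6% of the Htr7 TPM in the 2 libraries, and transcripts annotated for nonsense-mediated decay held 29.2% ± 7.70, or 45.0% ± 5.19 in the second quantification. In Hrh2 the nonsense-mediated decay transcript Hrh2-203 held 44.7% ± 7.43. Hrh2-202, of 421 residues, held 29.0% ± 12.2 and Hrh2-201, of 397 residues, 26.2% ± 4.81. In replicate 2, Hrh2-203 had 103.65 counts (posterior SD 32.5) and Hrh2-202 had 95.24 (32.67), so their order there was not settled. With these nonsense-mediated decay transcripts, the levels of Htr7 and Hrh2 are not levels of coding RNA alone.

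**Figure D3:**
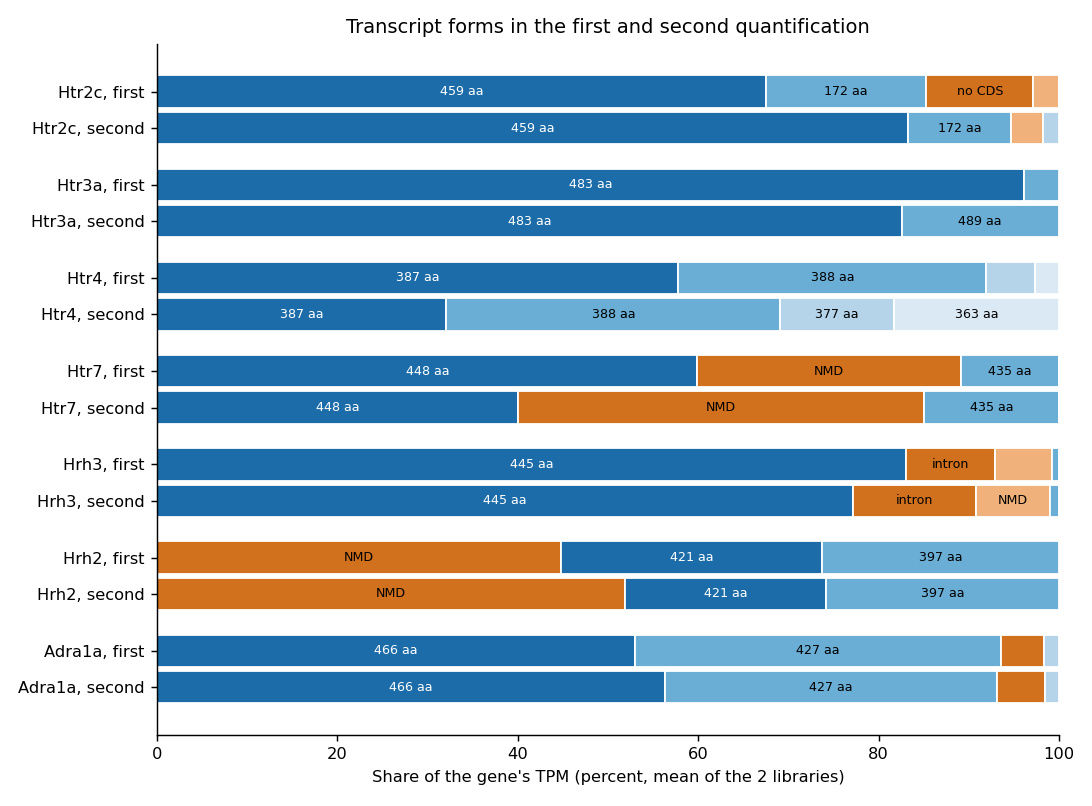
Share of each gene's TPM by transcript form, mean of the 2 libraries, in the first (alignment-based) and the second quantification; blue parts code for a protein of the number of residues (aa) given and orange parts are transcripts with no full coding product (NMD, nonsense-mediated decay; intron, retained intron; no CDS, processed transcript). The Htr3a short form leads in both, at 96.2% and 82.6%, while the leading Htr4 form differs between the quantifications.

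Forms of other members were measured in the same way. The 460-residue form of Chrm1 held 97.2% ± 0.138 of its TPM, and the rest was Chrm1-203, a 74-residue fragment that reached 15.3% ± 1.21 in the second quantification. The 589-residue form of Chrm3 held 96.1% ± 0.573. Adra1b-203 held 56.3% ± 14.1 of Adra1b, but its coding sequence is annotated as incomplete, so its 462 residues are not a full protein length. The complete form of Adra1b, of 515 residues, held 21.8% ± 7.03, and so did the processed transcript Adra1b-202. Each had 20.51 and 35.2 expected counts, so the split between them was not settled. In the second quantification the complete form held 27.7% ± 3.01 and Adra1b-202 4.12% ± 5.83. The forms of Drd1 depended on the quantification. In the first, the 446-residue form Drd1-201 held 66.6% ± 6.59 and the processed transcript Drd1-203 33.4% ± 6.59, which rests on 3.72 and 4.18 counts. In the second, the 439-residue form Drd1-202 held 31.6% in replicate 1 and 95.3% in replicate 2, Drd1-201 21.8% and 0, and Drd1-203 46.6% and 4.72%. Over protein_coding transcripts of the first quantification, the log2 ratio of Drd1 over Drd2 was 0.24 in replicate 1 and -0.47 in replicate 2 (-0.12 ± 0.50), against 0.47 ± 0.36 at the gene level, and that of Drd1 over Drd5 was -2.50 ± 0.28 against -1.91 ± 0.14. The order of Drd1 and Drd2 was therefore not settled.

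In the first quantification, genes that make and carry the transmitters were below 1 TPM in both libraries, except Ddc, while those that break them down were detected. Of 7 serotonin genes, 3 were detected: Maob at 8.27 ± 0.566 TPM and Maoa at 5.86 ± 0.170 TPM, the monoamine oxidases, and Ddc, the decarboxylase of serotonin and dopamine synthesis, at 3.20 and 2.21 TPM. Tph2, the neuronal enzyme of the first step of serotonin synthesis, had 17 and 24 counts, and Slc6a4, the serotonin transporter, 1 and 0. Of 7 catecholamine genes, 2 were detected, among them Ddc. Th, the first enzyme of dopamine and noradrenaline synthesis, had 9 and 7 counts and Dbh, which turns dopamine into noradrenaline, 6 and 8. Of 5 acetylcholine genes, 2 were detected: Ache, acetylcholinesterase, at 22.9 ± 1.08 TPM and Bche at 1.57 ± 0.347 TPM. Chat, the enzyme of acetylcholine synthesis, had 2 and 0 counts. Of the 2 histamine genes, Hnmt, which methylates histamine, had 12.3 and 12.7 TPM, and Hdc, its synthesis enzyme, 0.48 and 0.72 TPM. In the second quantification Hdc had 1.13 and 1.70 TPM, above the minimum. These lists hold most of the defining markers of the neurons of origin: 0 of 6 brainstem monoamine neuron genes (Th, Slc6a3, Tph2, Slc6a4, Dbh and Fev) and 0 of 3 cholinergic neuron genes were detected, and only Fev, with 0 counts, is not already in the transmitter lists.

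Receptor kinases, which phosphorylate active receptors, and arrestins, which then bind them and end G protein signalling, were detected in 7 of 7 cases. Grk2 stood at 76.3 ± 5.27 TPM, Arrb1 at 58.8 ± 3.46 TPM, Arrb2 at 37.7 ± 2.66 TPM, Grk3 at 33.4 ± 1.85 TPM and Grk6 at 25.2 ± 0.474 TPM. Grk5 had 4.87 and 3.09 TPM and Grk4 2.20 and 2.96 TPM. Grk2 was at the level of Chrm1, the highest receptor gene, with overlapping ranges of 72.6 to 80.0 TPM and 72.6 to 73.0 TPM.

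**Figure D4:**
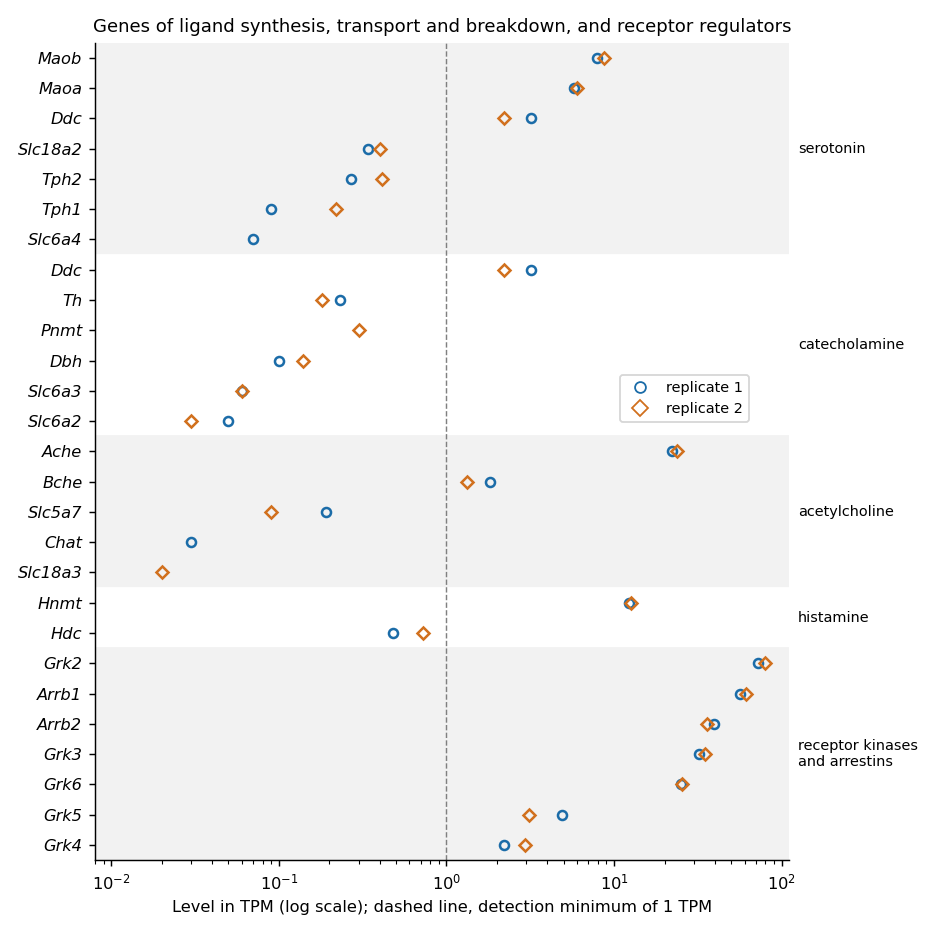
Level in TPM on a log axis of genes of transmitter synthesis, transport and breakdown, by transmitter, and of receptor kinases and arrestins, with replicate 1 as circles and replicate 2 as diamonds; a library at 0 has no symbol and Ddc belongs to 2 lists. Synthesis and transport genes such as Tph2, Th and Chat lie left of the 1 TPM line, with Ddc as the exception, and Ache and Hnmt lie between 12.3 and 23.7 TPM.

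Between the libraries the receptor genes varied little. Of 29 members that reached 0.5 CPM on average, 0 differed by 2-fold or more, against 0.625% of 13915 protein-coding genes as background, a share too small for a list of this size to stand apart from. The log2 ratio of replicate 1 over replicate 2 ran from -0.35 for Drd2 to 0.33 for Drd1, and both of these had a 95% counting interval that included 0. With this scaling (TMM), the interval excluded 0 for 3 of 29 members, or 10.3%, against 17.7% of protein-coding genes. An interval narrows with more counts, so these shares also depend on how deeply each gene was counted. The median absolute log2 ratio was 0.079 for members and 0.073 for protein-coding genes. Hrh3 had 1137 and 1314 counts and a log2 ratio of -0.28 (-0.40 to -0.17), and Htr2c had 931 and 1012 counts and a log2 ratio of -0.19 (-0.33 to -0.07). Chrm1, the most deeply counted member, had a log2 ratio of 0.05 (0.00 to 0.09). The intervals cover counting error only. Scaled to the ERCC spike-ins, which moved each ratio by 0.18 and left the median of protein-coding genes at 0.17, the ratio was -0.10 for Hrh3 (-0.22 to 0.01) and -0.02 for Htr2c (-0.15 to 0.11), so that both intervals then included 0. That of Chrm1 was 0.23 (0.18 to 0.27). Other intervals that had included 0 then excluded it: those of Adra1d, Adra2c, Adra1a, Chrm3, Chrm2, Drd1, Htr1a, Htr4, Htr1b and Htr5b. All of these ratios were above 0, and that of Drd1 was 0.51 (0.08 to 0.95). Which members had an interval that excluded 0 thus depended on the scaling. Under ERCC scaling the share of protein-coding genes with such an interval was not counted, so these members cannot be set against it.

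Htr2c is known to be strongly expressed in the choroid plexus, and choroid plexus genes moved the same way: Ttr, the highest of the 9, had 29.9 TPM in replicate 1 and 672 TPM in replicate 2, and Aqp1, the lowest, a mean of 1.09 TPM; 5 of the 9 were detected in both libraries. The sum of the list was 18.2 times as high in replicate 2 as in replicate 1, and Htr2c had 8.81 and 11.0 TPM. The part of these cells in the Htr2c level was not tested.

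**Figure D5:**
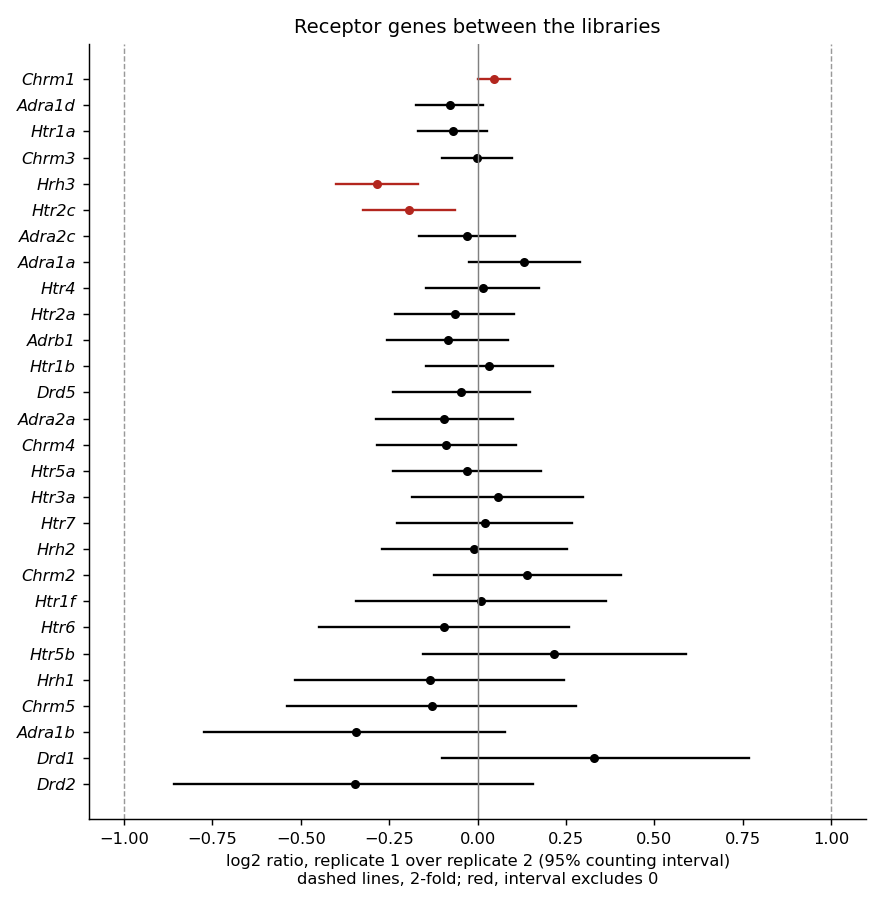
Log2 ratio of expected counts, replicate 1 over replicate 2, for 28 of the 29 receptor genes that reach 0.5 CPM on average, ordered by mean CPM, with 95% counting intervals as bars. All lie within the dashed 2-fold lines, and Chrm1, Hrh3 and Htr2c, in red, have intervals that exclude 0.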

How the data were processed

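Per the labels, ribosomal RNA was reduced, libraries were stranded and ERCC RNA was added. For each library the authors deposited a gene table and 2 transcript tables. The gene table and one transcript table give, per the file headers, an expected count and TPM in the RSEM layout, with a posterior SD as a score of the spread of each expected count, which was 0 for all 37 members at the gene level; the other transcript table, called the second quantification, in the kallisto layout, gives an estimated count and TPM. The authors used mm10, per the labels; which tools they ran is not given in the sources used here. The assembly represents C57BL/6J, and alleles were not analysed here.

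Members, gene lists and tests were chosen with earlier results of these data known. Rows that name no gene, 0.418% and 0.479% of counts, were left out. Detection needed 1 TPM or more in each library. All members, all genes of the transmitter lists, the highest and lowest gene of a marker list and transcripts holding at least 10% of a detected gene could be named; smaller fractions are named where a form is compared, some of these genes are not reported here, and protein sequences, planned for the leading genes, were not printed. Expected counts were rounded, scaled by TMM in edgeR 4.0.16 (R 4.3.3) and turned into log2 ratios with a prior count of 0.5. Counting intervals (95%) are exact binomial ones (Clopper-Pearson) on replicate 1's part of a gene's counts. Motifs, identities (percent of the shorter protein) and protein lengths come from the GENCODE M21 transcripts, read with Biopython 1.88; tables were handled in Python 3.11.15. The ratio step was tested on simulated data. Alternatives were DESeq2 1.42.0 size factors, ERCC scaling, the second quantification, CPM, protein_coding transcripts only, other minimums and each replicate alone.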

Additional observations from a re-analysis of the deposited data

How the results depend on the processing

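No paired analysis was possible because the series holds 1 group. The number of receptor genes detected stayed within 1.5 times 28 under every alternative tried, and the leading gene of each of the 6 families was the same on all 5 scales. These scales include TPM itself and TPM rescaled over protein-coding nuclear genes, which cannot change an order within a library. The number differing at least 2-fold between the libraries was 0, and 3 of 37 with no minimum CPM, against 1617 of 21901 protein-coding genes. The 3 were Adrb3, Drd4 and Htr2b, each with under 10 counts in each library. The other alternatives gave 0. The size of the shares moved with the scale. With CPM, which has no length correction, the leader's share was 46.8% for Adra1d, 91.8% for Adrb1, 76.3% for Chrm1, 72.9% for Drd5, 77.1% for Hrh3 and 29.9% for Htr1a, and the coupling classes held 61.0% (Gq), 26.99% (Gi/o), 10.7% (Gs) and 1.24% (channel). Over protein_coding transcripts only, the shares were 63.7% for Adra1d, 67.2% for Chrm1, 72.3% for Drd5 and 24.5% for Htr1a. In the second quantification they were 68.1% for Chrm1, 67.7% for Drd5 and 23.97% for Htr1a, and 56.5% for Gq, 27.9% for Gi/o and 13.5% for Gs. Without Htr5a and Htr5b the classes held 56.6% (Gq), 27.6% (Gi/o) and 13.6% (Gs). Length enters the first of these changes by construction; the cause of the others was not tested. Of 13 gene pairs compared, 2 changed order under an alternative: the log2 ratio of Htr5a over Htr5b was -0.029 without replicate 2 and 0.22 without replicate 1, and that of Drd1 over Drd2 was -0.12 over protein_coding transcripts only.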

Other observations

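Some of the receptor genes lie close together on a chromosome. Htr3a (chromosome 9 from 48899213 to 48911099, mm10) and Htr3b (48935008 to 48964990) are neighbours on the minus strand, and had 6.28 and 6.23 TPM against 0 counts in both libraries. Drd1 (chromosome 13 from 54051183 to 54055705) had 1.67 and 1.55 TPM and Hrh2 (54192129 to 54236180) 2.71 and 2.76 TPM. Whether these loci share any control was not tested.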
